A study of Mus musculus with 3 samples.

Results

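The chemokines and chemokine receptors were followed in 3 one-colour microarrays of primary cultures from the erectile tissue (corpus cavernosum) of C57BL/6 mice, which the labels call endothelial. Members were the probes whose RefSeq accession names a Ccl, Cxcl, Ccr or Cxcr gene or Cx3cl1, Cx3cr1, Xcl1, Xcr1, Ppbp, Pf4 or Ccrl2. This gave 66 of 39429 probes and 55 of 20886 named genes, 36 of them ligands and 19 receptors. A further 6 symbols of the rule (Ccl21a, Ccl21b, Ccl21c, Ccl21d, Ccl27b and Cxcl11) matched no probe. The first array was of cells kept in normal glucose (labelled 5 mmol) for 48 h. The second was of cells given 30 mmol glucose for the same time, and the third of such cells that also received DKK2, a secreted modulator of Wnt signalling. No source used here states the DKK2 dose. All cells were grown in medium with fetal bovine serum, heparin and vascular endothelial growth factor A, and each array received pooled RNA of 3 samples. With 1 array per condition there was no replicate check and no p-value, and the position on the slide and the condition cannot be told apart. In these bulk samples, fewer cells of a type and less RNA per cell cannot be told apart either.

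Chemokines are small secreted proteins that guide white blood cells along concentration gradients. They are classed by the spacing of their first cysteines (CC, CXC, CX3C and XC) and act on G protein-coupled receptors named for the same classes. Endothelium presents them to passing leukocytes, macrophages and fibroblasts make many of them, and atypical receptors take them up without classical signalling.

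The signal per probe is the scanner's background-corrected intensity on a linear scale. The normal glucose array was dimmer: its 75th percentile of signal was 1201, against 2380 in high glucose and 2417 with DKK2. Differences below are therefore log2 differences after each array's 75th percentile was set to 0, and a raw signal that doubled between normal and high glucose is close to no difference on that scale. A level is the scaled log2 signal on 1 array, and signals of different probes are not compared. "Higher" and "lower" for a count mean at least 2-fold. The technical error of a difference from the scanner's error model was 0.20 (median SD over all genes), which leaves out variation between cultures, and 65 of the 66 member probes had 1 spot per array. A gene stands on its brightest probe. Of the 55 members, 44 were well above background on at least 1 array. The remaining 11 (Ccl1, Ccl20, Ccl22, Ccl26, Ccr2, Cxcl2, Cxcl15, Cxcr2, Cxcr5, Xcl1 and Xcr1) had signals between 1.63 and 8.19 and no level is given for them. They include Ccr2, the receptor of Ccl2 and Ccl7. All 10 endothelial markers examined were above background on at least 1 array, as were all 10 fibroblast markers and 14 of 16 macrophage markers. Of all probes, 76.6% to 84.7% were above background, depending on the array. With so large a share, these counts do not by themselves show which cell types the cultures held.

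The comparison of DKK2 in high glucose with high glucose alone addressed the response to the added protein. With DKK2, 9 of the 41 members with a level in both conditions were higher and 4 lower, against 5.08% and 4.85% of the 17825 genes measured on both. That is 22.0% and 9.76% of the members. All 13 were ligands. The 9 higher ligands were Ppbp, Pf4, Ccl6, Ccl9, Ccl5, Ccl3, Ccl4, Ccl2 and Ccl7, and the 4 lower ones were Cxcl13, Cxcl14, Ccl11 and Ccl27a. The member just past 2-fold was Ccl7 at 1.16 and the one just short of it Cxcr3 at 0.999, and on the lower side they were Ccl27a at -1.05 and Cxcl12 at -0.94. The median difference was 0.25 for the members and 0.08 for all genes.

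Among the CC ligands, 7 of 16 measured were higher and 2 lower with DKK2, with a median of 0.93. Ccl2 and Ccl7, which draw monocytes through Ccr2, were bright on every array. The signal of Ccl2 was 4803 in normal glucose, 13839 under high glucose and 37907 with DKK2. Its difference with DKK2 was 1.43 (error SD 0.20). The signal of Ccl7 was 3151, 8834 and 20061 in the same order, which holds for every set of 3 signals below, a difference of 1.16 with DKK2. Both genes were highest with DKK2, and the larger raw signal in high glucose than in normal glucose left a difference of 0.54 for Ccl2 and 0.50 for Ccl7 after scaling. Ccl8, encoded in the same cluster, was bright throughout with signals of 10428, 20395 and 38094, and its difference with DKK2 was 0.88. Ccl12, another monocyte attractant, was dim, with signals of 25.2, 42.3 and 84.8 and a difference of 0.98, just short of 2-fold. With normexp background correction, which adds a fixed offset and so draws differences of dim probes together, Ccl12 was at 0.58.

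Ccl3, Ccl4, Ccl5, Ccl6 and Ccl9 made a second set of CC genes. Ccl6 and Ccl9, mouse chemokines made by macrophages that act on Ccr1, had the largest differences of the class. The signal of Ccl6 was 386 in normal glucose, 727 under high glucose and 2724 with DKK2, a difference of 1.88 with DKK2. The signal of Ccl9 was 224, 660 and 2351, a difference of 1.81. Neither Ccl6 at -0.07 nor Ccl9 at 0.57 was 2-fold apart between the glucose arrays. Ccl5, a chemokine made by T cells and many activated cells, had signals of 189, 372 and 1224 and a difference of 1.70 with DKK2. Ccl3 and Ccl4 are macrophage inflammatory chemokines. Ccl3 had signals of 109, 110 and 328, so that after scaling it was at -0.97 in high glucose, just short of 2-fold lower, and at 1.55 with DKK2. Ccl4 had signals of 45.9, 78.9 and 233 and a difference of 1.54 with DKK2. With normexp these ligands kept to the higher side with DKK2, at 1.71 for Ccl6, 1.78 for Ccl9, 1.53 for Ccl5, 1.11 for Ccl3 and 1.09 for Ccl4.

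**Figure D1:**
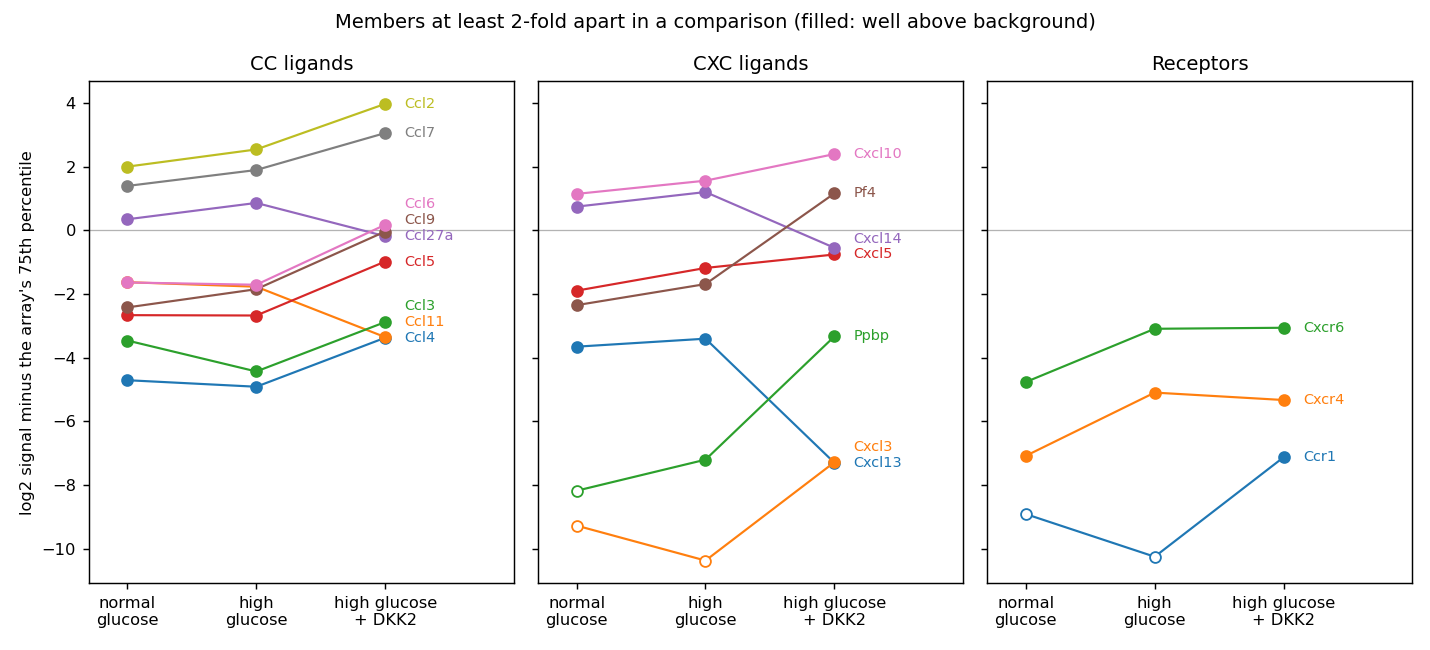
Scaled level (log2 signal minus the array's 75th percentile, vertical axis) of members that were at least 2-fold apart in a comparison or had a lower bound of 2-fold, on the 3 arrays, by class. Filled points were well above background and open points were not. Ccl2, Ccl7, Ccl6, Ccl9, Pf4 and Ppbp are highest with DKK2, and Cxcl13, Cxcl14 and Ccl11 are lowest there.

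The CC ligands that were lower with DKK2 attract other cells. Ccl11, eotaxin, which draws eosinophils through Ccr3, had signals of 388 in normal glucose, 696 under high glucose and 236 with DKK2. Its difference was -1.58 with DKK2 and -0.14 between the glucose arrays, so the DKK2 array was the low one. Ccl27a, a ligand of Ccr10 best known from skin, was read by 3 probes. The brightest had signals of 1526, 4315 and 2122 and a difference of -1.05 with DKK2, the smallest of the 4 lower members, and the other probes gave -0.98 and -0.38. Ccl27b is a close copy of this gene, and which copy the probes read cannot be told apart. With normexp Ccl27a was at -0.98, under 2-fold.

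The remaining CC ligands were under 2-fold on their brightest probe in all 3 comparisons. Ccl25, a ligand of Ccr9, had signals of 953, 2463 and 2469 and a difference of -0.02 with DKK2 (0.17 on its other probe). Ccl17, a ligand of Ccr4, was at -0.08 with signals of 35.1, 64.9 and 62.5. Ccl19, a ligand of Ccr7, was read by 3 probes that disagreed with DKK2. The brightest was at 0.25, with signals of 125, 267 and 323, and the others were at 0.14 and -1.10. Ccl24 was not well above background in normal glucose, and Ccl28 was at -0.21 with DKK2.

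Among the CXC ligands, 2 of 11 measured were higher and 2 lower with DKK2, with a median of -0.155, and they held the largest differences in both directions. Pf4 and Ppbp are the chemokines stored in platelets. Pf4 had signals of 235 in normal glucose, 738 under high glucose and 5391 with DKK2, a difference of 2.85 with DKK2 and of 0.66 between the glucose arrays. Ppbp, whose product attracts neutrophils through Cxcr2, had signals of 4.14, 16.1 and 239. It was not well above background in normal glucose and was in high glucose, where the lowest signal counted as above background was 7.22. Its difference with DKK2 was 3.87 (error SD 0.26) and 2.06 with normexp. Pf4 was at 2.73 with normexp. Cxcl3, a neutrophil attractant encoded beside them, had signals of 1.94, 1.79 and 15.5, was above background with DKK2 only and was at least 2.11-fold higher than in high glucose. Such bounds of at least 2-fold were reached by 36.9% of the 336 genes above background with DKK2 and not in high glucose.

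The other neutrophil attractants of the CXC class did not share that size. Cxcl5 had signals of 322, 1047 and 1427 and a difference of 0.42 with DKK2. Cxcl1 had signals of 619, 1720 and 1029 and a difference of -0.76, on the opposite side of 0 from Pf4, Ppbp and Cxcl5. Cxcl2 and Cxcl15 were not above background on any array. Cxcl10, an interferon-induced ligand of Cxcr3, had signals of 2651, 7004 and 12687 and a difference of 0.84 with DKK2. Cxcl9, which shares that receptor and induction, was dim at 25.2, 40.2 and 44.8 and at 0.13, and its other probe was at 0.59.

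Cxcl13 and Cxcl14 were the lower CXC ligands. Cxcl13, which places B cells in lymphoid tissue through Cxcr5, had signals of 95.3 in normal glucose, 225 under high glucose and 15.3 with DKK2. Its difference with DKK2 was -3.90 (error SD 0.29), and -1.54 with normexp, where the low signal on the DKK2 array is lifted by the offset. Cxcl14, a chemokine of epithelial and stromal cells, had signals of 2009, 5469 and 1650 and a difference of -1.75 (-1.66 with normexp). Both were lowest with DKK2. Cxcl12, the stromal ligand of Cxcr4 that retains blood progenitors, was bright on all arrays and read by 2 probes, for different transcripts. The brighter had signals of 18204, 38333 and 20294 and a difference of -0.94, just short of 2-fold, and the other had 9838, 30887 and 14888 and a difference of -1.075. Cxcl16, a transmembrane ligand of Cxcr6, was at -0.28 with signals of 493, 997 and 836. Cx3cl1, fractalkine, a membrane-bound ligand on endothelium, had signals of 11261, 16905 and 16887 and was at -0.02 with DKK2 and -0.40 in high glucose.

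**Figure D2:**
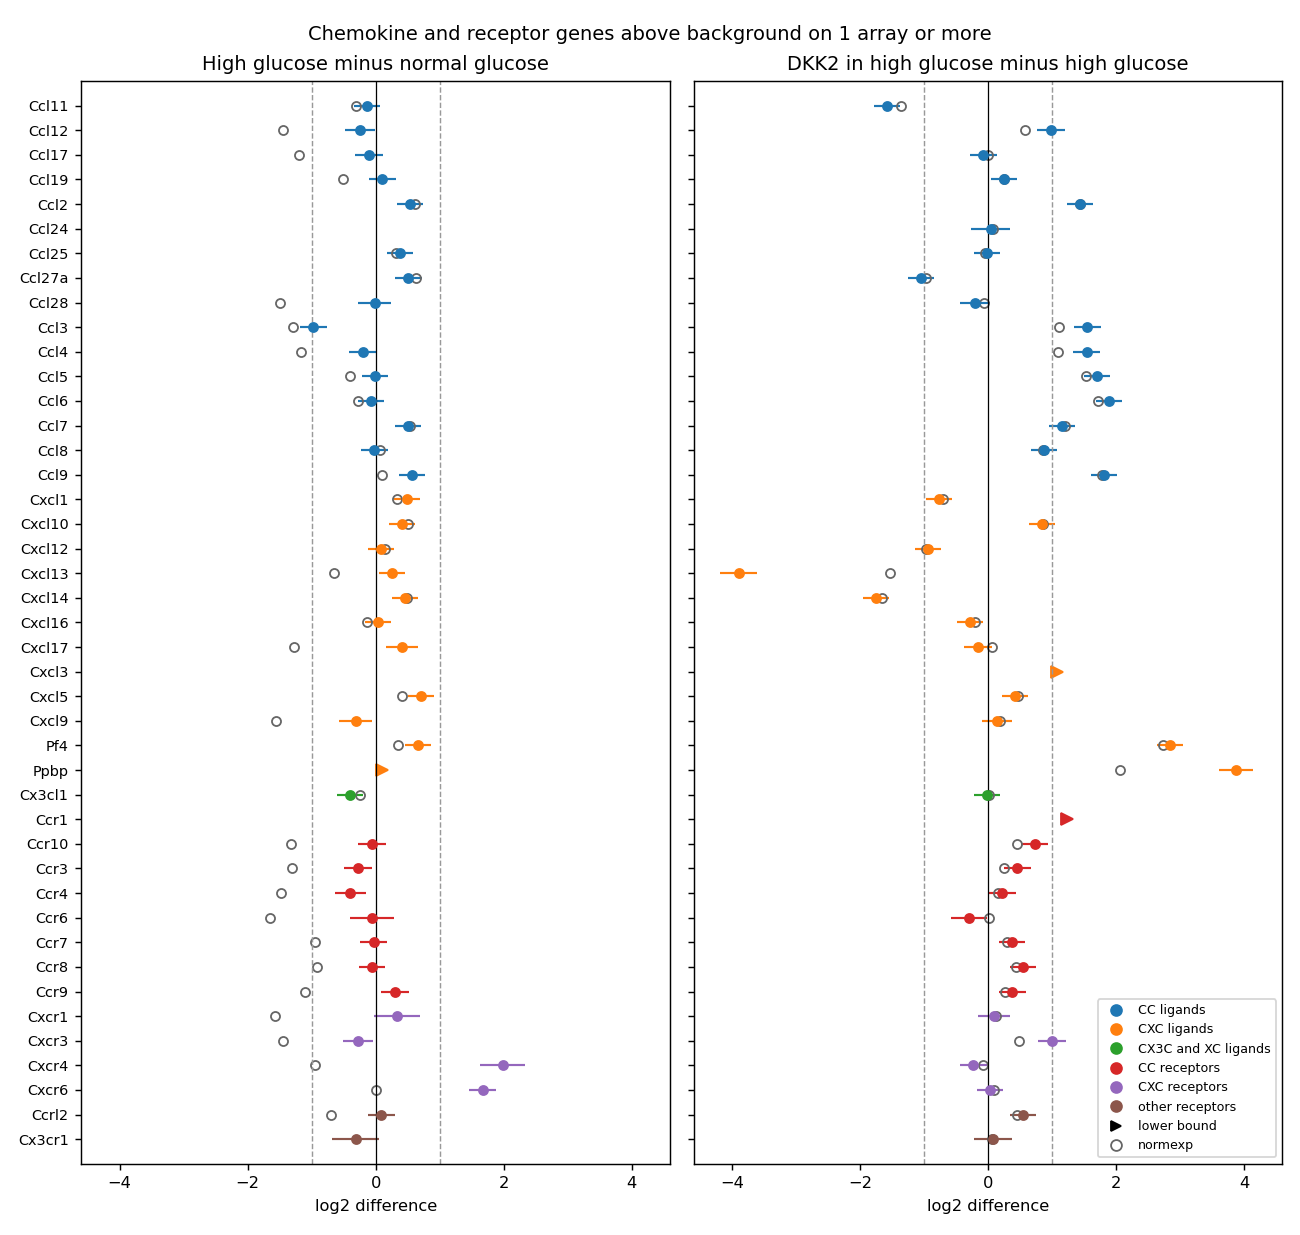
Log2 difference (horizontal axis) of members above background on at least 1 array, for high glucose against normal glucose and for DKK2 in high glucose against high glucose. Filled points carry the technical error SD, triangles are lower bounds, open circles are values with normexp and dashed lines mark 2-fold. On the right the 13 differences past 2-fold belong to ligands and stay on the same side of 0 with normexp, and on the left Cxcr4 and Cxcr6 are past 2-fold and are at -0.95 and 0.01 with normexp.

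Among the receptors that are members, the highest signal on any array was 289. The atypical receptors are not members and are given further below. With DKK2, 0 of 13 measured member receptors were higher and 0 were lower. Of these, 11 of 13 lay above 0, as did 57.6% of all genes, and their median was 0.37. Ccr1, a receptor of Ccl3, Ccl5, Ccl6 and Ccl9, had signals of 2.49, 1.95 and 17.3. It was well above background with DKK2 and on no other array, and was at least 2.36-fold higher than in high glucose. Cxcr3, the receptor of Cxcl9 and Cxcl10, had signals of 25.1, 41.1 and 83.5 and a difference of 0.999, the nearest receptor to 2-fold (0.48 with normexp). The brightest of the remaining receptors under 2-fold were Ccr8 at 0.55, Ccrl2, which binds chemerin, at 0.55, Ccr3 at 0.45 and Ccr7 at 0.37. A dimmer probe of Ccr8 was at 0.005. Cx3cr1, the receptor of Cx3cl1, was at 0.08 on the probe used, and another probe was at -0.09.

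Members that are neighbours in the genome could be read together. In the RefSeq gene table (GRCm38.p6, used here for the order of genes), 3 runs of at least 5 members have no other protein-coding gene between them. In the run Ccl5, Ccl9, Ccl6, Ccl3 and Ccl4, all 5 genes were higher with DKK2, between 1.54 and 1.88. In the run Ccl2, Ccl7, Ccl11, Ccl12, Ccl8 and Ccl1, 4 of 5 measured genes lay above 0 while Ccl11, in their middle, was at -1.58. In the run Cxcl5, Ppbp, Pf4, Cxcl3, Cxcl15, Cxcl1 and Cxcl2, the adjacent genes Ppbp and Pf4 were the higher ones and Cxcl1 lay below 0. Neighbours differed in size and direction in 2 of the 3 runs. Members of a run are similar in sequence, and how far their probes read each other's RNA was not tested.

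**Figure D3:**
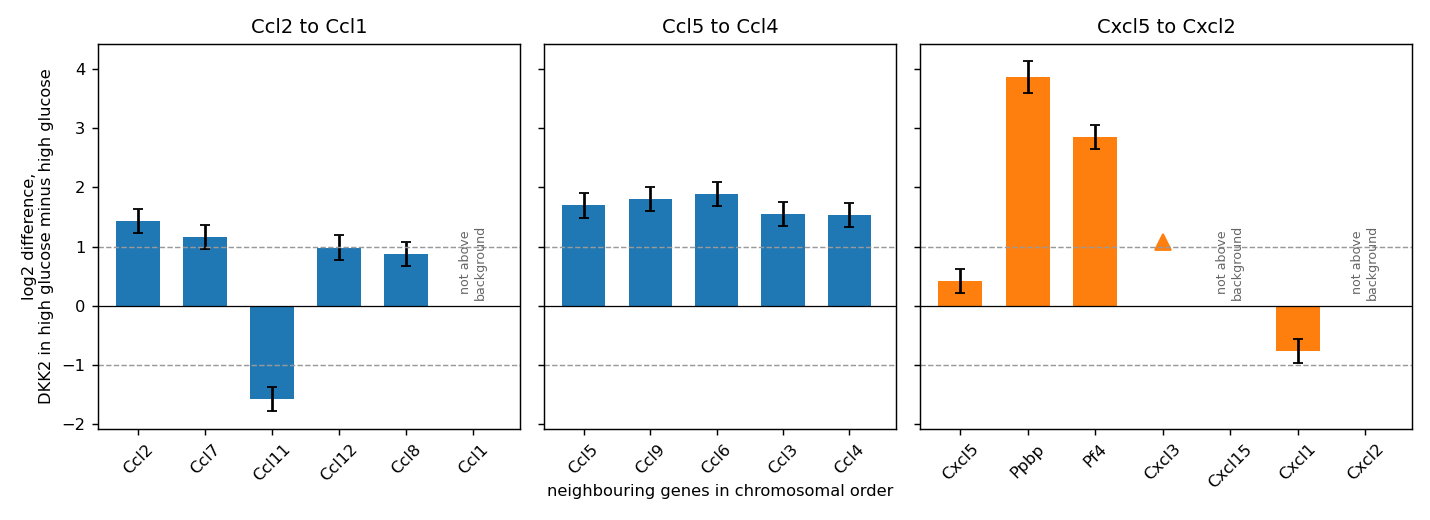
Log2 difference with DKK2 in high glucose (vertical axis, bars with the technical error SD) for 3 runs of neighbouring chemokine genes in chromosomal order. The triangle is a lower bound and dashed lines mark 2-fold. All 5 genes from Ccl5 to Ccl4 pass 2-fold, while Ccl11 points down among higher neighbours.

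Promoter sequences are shown for the members with the largest differences on either side that the RefSeq promoter table holds, so that neighbouring genes with like differences can be compared by sequence. It matched 41 of the 55 members and 13 of the 20 that were 2-fold apart or had such a bound. Ccl11, Ccl2, Ccl4, Ccl5, Ccl7 and Cxcl5 were among those not matched. Each line gives the 250 bases before the annotated start, 5′ to 3′ on the strand of the gene (GRCm38.p6). Capitals mark matches on either strand to a loose NF-kappaB pattern (GGG, any 5 bases, CC), to TGANTCA for AP-1, where N is any base, or to an interferon response pattern (GAAA, any 2 bases, GAAA), and matches of different patterns may overlap. Pf4 and Ppbp are the neighbours with the largest differences above 0, Ccl9, Ccl6 and Ccl3 come from the run in which every gene was higher, and Cxcl13 and Cxcl14 were lower.
Ppbp, chr5:90768268-90768517, plus strand: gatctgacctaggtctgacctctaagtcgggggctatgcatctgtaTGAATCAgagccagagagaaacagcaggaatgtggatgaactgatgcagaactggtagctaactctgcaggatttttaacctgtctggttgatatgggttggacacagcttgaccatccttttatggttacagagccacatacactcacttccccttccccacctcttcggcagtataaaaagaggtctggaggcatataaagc
Pf4, chr5:90772185-90772434, plus strand: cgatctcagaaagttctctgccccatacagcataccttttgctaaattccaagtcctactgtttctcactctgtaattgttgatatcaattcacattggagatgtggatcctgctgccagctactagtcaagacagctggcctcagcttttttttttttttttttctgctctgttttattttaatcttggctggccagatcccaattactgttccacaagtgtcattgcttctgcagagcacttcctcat
Ccl9, chr11:83578637-83578886, minus strand: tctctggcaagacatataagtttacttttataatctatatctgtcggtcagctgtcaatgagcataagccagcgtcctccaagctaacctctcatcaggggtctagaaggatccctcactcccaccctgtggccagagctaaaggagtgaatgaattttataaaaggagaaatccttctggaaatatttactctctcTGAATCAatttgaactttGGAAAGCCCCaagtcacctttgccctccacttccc
Ccl6, chr11:83593088-83593337, minus strand: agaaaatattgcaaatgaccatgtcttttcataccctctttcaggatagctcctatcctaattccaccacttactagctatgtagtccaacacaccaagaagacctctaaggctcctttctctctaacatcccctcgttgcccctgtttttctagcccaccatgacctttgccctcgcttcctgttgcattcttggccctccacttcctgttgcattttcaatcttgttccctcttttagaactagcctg
Ccl3, chr11:83649379-83649628, minus strand: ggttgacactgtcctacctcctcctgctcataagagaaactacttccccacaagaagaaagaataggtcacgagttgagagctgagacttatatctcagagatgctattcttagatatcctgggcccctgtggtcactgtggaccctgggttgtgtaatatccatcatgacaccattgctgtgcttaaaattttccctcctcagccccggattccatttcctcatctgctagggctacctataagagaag
Cxcl13, chr5:95956689-95956938, plus strand: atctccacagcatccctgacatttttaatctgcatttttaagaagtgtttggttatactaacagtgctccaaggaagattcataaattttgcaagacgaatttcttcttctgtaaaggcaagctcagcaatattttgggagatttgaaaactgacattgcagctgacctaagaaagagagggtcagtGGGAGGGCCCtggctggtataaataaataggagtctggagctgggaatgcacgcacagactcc
Cxcl14, chr13:56296552-56296801, minus strand: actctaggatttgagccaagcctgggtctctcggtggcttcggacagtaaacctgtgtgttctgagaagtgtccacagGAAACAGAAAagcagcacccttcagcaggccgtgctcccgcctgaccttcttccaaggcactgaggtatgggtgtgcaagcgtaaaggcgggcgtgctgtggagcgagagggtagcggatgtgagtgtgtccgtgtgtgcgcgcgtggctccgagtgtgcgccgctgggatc
The neighbours did not share these patterns. Ppbp holds 1 AP-1 match and Pf4 holds none of the 3 patterns. Ccl9 holds 1 NF-kappaB and 1 AP-1 match, while Ccl6 and Ccl3 from the same run hold none. Cxcl13, which was lower, holds 1 NF-kappaB match, and Cxcl14 holds 1 interferon response match. The table holds 54 windows of 45 genes named by the rule. These include genes with no probe, such as Ccl27b, and some genes have more than 1 window. Of the 54 windows, 48.1% held the NF-kappaB pattern, 13.0% the AP-1 pattern and 5.56% the interferon response pattern. Over all 32851 windows of this length the shares were 45.8%, 6.75% and 2.98%. A match is a description of letters and no evidence of binding.

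The comparison of high glucose with normal glucose was between the arrays without DKK2, of which the normal glucose array was also the dimmer. In high glucose, 2 of the 39 members with a level in both conditions were higher and 0 lower, against 2.67% and 5.72% of 16771 genes, and the median was 0.03 for the members and 0.09 for all genes. Ccl24 and Ppbp were the only members above background in high glucose and not in normal glucose. Neither had a bound of 2-fold, which 5.22% of 1514 such genes reached, and they are too few to set against that share. Both higher members were receptors. Cxcr4, the receptor of Cxcl12, had signals of 8.85 in normal glucose, 69.5 under high glucose and 60.0 with DKK2, a difference of 1.99 (error SD 0.35). Cxcr6, the receptor of Cxcl16, had signals of 44.2, 279 and 289, a difference of 1.67, and its other probe gave 2.09. In both genes normal glucose was the low array and the 2 high glucose arrays were alike, at -0.23 and 0.03 between them. Neither call held with normexp, where Cxcr4 turned to -0.95 and Cxcr6 was at 0.01, and in normal glucose the signal of Cxcr4 lay just above 7.57, the lowest signal counted as above background there. Normexp moved the median of all genes from 0.09 to -0.26 in this comparison. Of the ligands, 0 of 26 were 2-fold apart in high glucose, with differences from -0.97 for Ccl3 to 0.71 for Cxcl5.

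The comparison of DKK2 in high glucose with normal glucose shares an array with each of the others. With DKK2, 11 of 39 members were higher than in normal glucose and 3 lower, against 10.5% and 10.4% of 16676 genes, which is 28.2% and 7.69% of the members. Pf4 was at 3.51 here, Ccl9 at 2.38, Ccl2 at 1.97, Ccl6 at 1.81, Ccl5 at 1.68, Ccl7 at 1.66 and Ccl4 at 1.33. Cxcl10 at 1.25 and Cxcl5 at 1.14 were past 2-fold in this comparison while each of their steps was under it. Ppbp was above background with DKK2 and not in normal glucose and was at least 15.7-fold higher, and a bound of at least 2-fold was reached by 15.5% of the 1476 such genes. Cxcr6 at 1.70 and Cxcr4 at 1.75 completed the higher members. Cxcl13 at -3.64, Ccl11 at -1.72 and Cxcl14 at -1.29 were lower, and Ccl3 was at 0.58. With normexp Ccl4 was at -0.07, Cxcr4 at -1.03, Cxcr6 at 0.09 and Cxcl5 at 0.88.

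The other genes of chemokine handling were taken from a list of 61, of which 57 were measured on both arrays of the DKK2 comparison. Of these, 8 were higher and 4 lower (14.0% and 7.02%), against 5.08% and 4.85% of all genes. With DKK2 against normal glucose 10 of 54 were higher and 7 lower (18.5% and 13%), against 10.5% and 10.4% of all genes. With DKK2 against high glucose the atypical receptors lay below 0 in 5 of 5 cases, and 2 were lower. Of all genes, 57.6% lay above 0. Gpr182 at -0.02 (error SD 0.31) and Ackr2 at -0.19 (error SD 0.22) were within the technical error of 0, and Ackr1 was at -0.395. Ackr3, which takes up Cxcl12, had signals of 3836 in normal glucose, 6730 under high glucose and 1460 with DKK2, a difference of -2.23. Ackr4, which takes up ligands of Ccr7 and Ccr9, had signals of 2045, 3516 and 1596, a difference of -1.16. Both were lowest with DKK2. In receptor signalling 5 of 22 were higher and 1 lower (22.7% and 4.55%). Among them Vav1, a guanine nucleotide exchange factor of blood cells, was at 1.42. The G protein subunit gene Gng2 was at 1.29, the blood cell GTPase gene Rac2 at 1.25 and its activator Dock2 at 1.095 (0.32 with normexp), and the receptor kinase gene Grk3 was at -1.73. Among proteases that cut chemokines, Mmp3 was at 1.91, the macrophage elastase gene Mmp12 at 1.25 and Dpp4, which trims chemokine ends, at -1.93 (-0.40 with normexp). Of the inducers and regulators 1 of 16 (6.25%) was higher, the NF-kappaB cofactor gene Nfkbiz at 1.07 (0.96 with normexp). Tnf was at 0.46, Il6 at 0.63 and the NF-kappaB inhibitor gene Nfkbia at 0.02, and Il1a and Il1b were not above background on any array. The genes that hold chemokines on heparan sulfate lay between -0.35 and 0.35.

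Macrophage markers were higher on the same array as the higher ligands. Of 14 measured macrophage markers 11 were higher with DKK2 and 0 lower, against 5.08% and 4.85% of all genes. Their median was 1.64. The largest differences were Fcgr3 at 2.10, Cd14 at 2.03, C1qa at 1.94 and Adgre1 at 1.74, and the smallest was Itgam at 0.04. Summed over 13 genes without Itgam, whose probe makes up most of the sum, their signal was 3.60 times the array's 75th percentile in normal glucose, 4.15 times in high glucose and 12.1 times with DKK2. With Itgam the sums were 28.1, 19.8 and 28.3. Of the other macrophage markers, Cd68 matched no probe and Cd163 was not above background on any array. The part of macrophages in the differences of Ccl2, Ccl3, Ccl4, Ccl5, Ccl6, Ccl7, Ccl9, Pf4, Ppbp and Ccr1 was not tested. Platelet and megakaryocyte markers were not higher with Pf4 and Ppbp: Itga2b was at -0.72 and Treml1 at -0.10, Gp6 was above background without DKK2 only, and Gp1ba and Gp9 were not above background on any array. Of 5 measured neutrophil markers S100a8 was higher, at 2.55, the others lay between -0.46 and 0.42, and Ly6g matched no probe. Ngp, another neutrophil marker, was above background in high glucose and not with DKK2, where it was at least 3.24-fold lower. Neutrophil sums were 1.85, 1.68 and 2.66 and platelet sums 0.0966, 0.12 and 0.0925. Elane made up most of each neutrophil sum and Treml1 most of each platelet sum. The 3 measured T cell markers lay between 0.01 and 0.37, with sums of 3.58, 2.72 and 3.26, mostly from Cd4, and no Cd3g above background. The 3 measured B cell markers lay between 0.19 and 0.83 and the 2 measured mast cell markers were at -0.96 and -1.13. The mast cell marker Cpa3 was not above background with DKK2 and was at least 7.23-fold lower there than in high glucose.

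Fibroblast markers and most adipocyte markers were lower on the same array as the lower ligands. Of all genes, 4.85% were at least 2-fold lower with DKK2 than in high glucose and 5.08% higher. All 10 fibroblast markers lay below 0 with DKK2, with a median of -0.58 and 3 of them lower. Their summed signal was 512, 475 and 339 times the 75th percentile on the 3 arrays in the same order. Dcn, at -0.54 with DKK2, and Col1a2, at -0.31, together made up most of each fibroblast sum. Of 5 adipocyte markers 4 were lower, with sums of 12.6, 18.7 and 6.74. Fabp4, at -1.09 with DKK2, made up most of each adipocyte sum. The 5 smooth muscle markers had a median of -0.69, with 1 of them lower. Endothelial markers had a median of -0.29, with 2 of 9 lower and 0 higher, and sums of 3.52, 4.64 and 5.14. Kdr, at 0.23 with DKK2, made up most of each endothelial sum. The part of these cell types in the differences of Cxcl12, Cxcl13, Cxcl14 and Ccl11 was not tested.

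**Figure D4:**
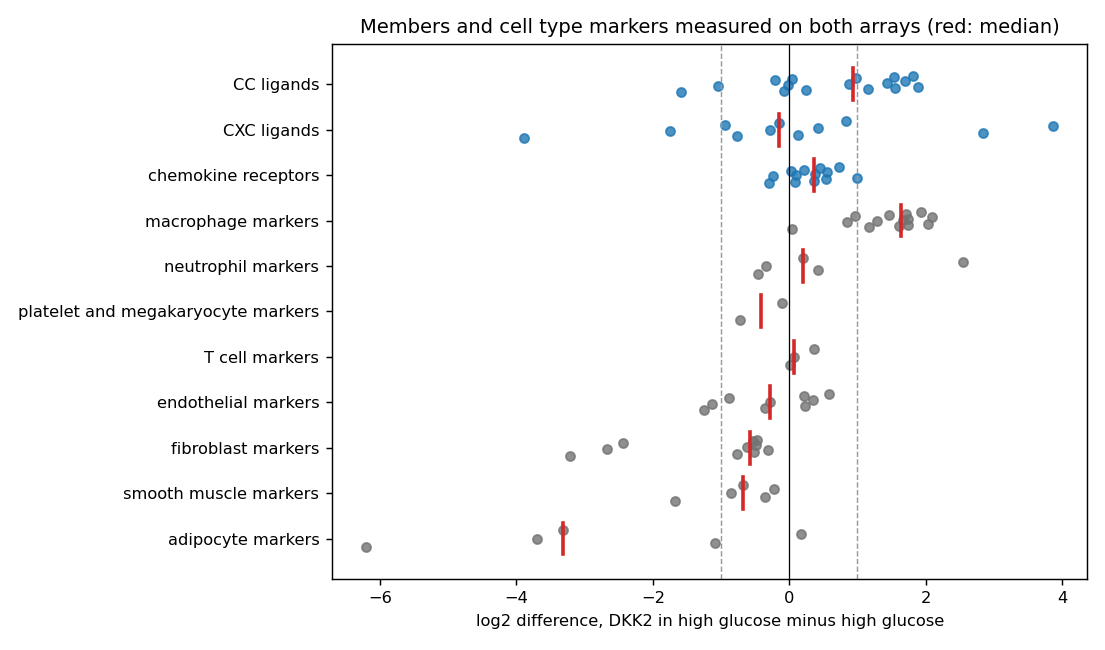
Log2 difference with DKK2 in high glucose (horizontal axis) of each member and each cell type marker measured on both arrays, 1 point per gene, with the list median in red and dashed lines at 2-fold. The macrophage markers (median 1.64) lie to the right with the higher CC ligands. The median of all 16 measured CC ligands is 0.93. Fibroblast markers and most adipocyte markers lie to the left.

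The other 12 members above background (Ccl12, Ccl24, Ccl28, Ccr4, Ccr6, Ccr9, Ccr10, Cx3cr1, Cxcl9, Cxcl17, Cxcr1 and Cxcr3) had signals from 3.51 to 96.8, and none was 2-fold apart in any comparison. Their differences ranged from -0.30 to 0.999 with DKK2 and from -0.40 to 0.41 in high glucose. Of 39 members above background on all 3 arrays, 22 were highest with DKK2, 9 in high glucose and 8 in normal glucose. Of the CXC ligands 6 of 10 were highest in high glucose, and of the CC ligands 10 of 15 were highest with DKK2. These counts were not made over all genes, so they cannot be read as a trait of the members. The highest array could lead by less than the technical error, as for Cxcr6 with DKK2 (0.03, error SD 0.205).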

How the data were processed

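RNA of 3 pooled samples per condition was hybridised to 1 Agilent array each with the dye Cy3, per the labels. Per the file headers, the scanner software was Feature Extraction 11.5.1.1. The deposited intensity per spot is background-corrected by the authors' software and not scaled between arrays. The deposited value table holds the same intensity (within a fraction of 0.001 for at least 99.8% of probes on each array).

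Control spots (1377 per array) and 110 to 136 outlier spots were left out, and no spot was saturated. Spots were averaged on the log2 scale and each array's 75th percentile was subtracted. The scanner's flag for signal well above background, in 50% or more of a probe's spots, set which probes had a level. Probes were named by accession through the RefSeq table (27508 with 1 symbol, 11921 with none). The brightest probe stood for a gene. For a bound, the dim side was taken as that array's lowest signal that passed the flag, or as the probe's own signal if larger. Members, lists and rules were chosen with earlier results of these data known. Members at least 2-fold apart or with such a bound are given in full, with the 8 brightest other ligands and 4 brightest other receptors. Results of some genes are not reported here. The counting was tested on simulated data. The split of CXC ligands by protein motif was not made, since no protein table was used here. Alternatives were normexp (offset 50, median signals), quantile normalization, median scaling, no filter, a minimum signal of 100, the mean over probes and the deposited table. Tools were R 4.3.3, limma 3.58.1, Python 3.11.15, numpy 2.4.6 and pandas 2.3.3.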

Additional observations from a re-analysis of the deposited data

How the results depend on the processing

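With DKK2 against high glucose, the counts of 9 higher and 4 lower members were 7 to 12 and 3 to 5 under the 7 alternatives, and the median of 0.25 ranged from 0.22 to 0.42. The 7 were of 19 members with the minimum signal of 100 and the 12 of 55 without the filter, and the other settings measured 41. Over all genes the shares under the alternatives were 2.83% to 6.26% higher and 2.68% to 6.47% lower. The minimum signal of 100 on all arrays leaves out genes that are dim on any 1 array, such as Cxcl13 and Ppbp. The comparisons with the dimmer normal glucose array depended on the background correction. With normexp, 0 of 38 members were higher and 14 lower in high glucose (2 and 0 in the main setting), beside 1.03% and 23.5% of all genes, with a median of -0.585 (0.03). With DKK2 against normal glucose 7 of 38 were higher and 12 lower (11 and 3), beside 5.63% and 24.0% of all genes, with a median of -0.435 (0.43). There Cxcr4 turned to -0.951 and -1.035 in these comparisons and Ccl4 to -0.072 in the second. Without the filter, 4 of 55 were higher and 5 lower in high glucose, beside 5.29% and 10.2% of all genes, and 7 of 55 lower with DKK2 against normal glucose, beside 11.2%. With the minimum signal of 100, high glucose had 0 higher, beside 1.80% of all genes, and a median of 0.384. The offset of normexp weighs more on the dimmer array by construction. No paired analysis was possible because each condition has 1 array. Signals near background limit the member receptors most, and the number of arrays limits the precision of every value.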
